A study of Mus musculus with 8 samples.

Results

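In the E17 mouse thymus, 3917 of 21451 tested genes separated both populations of reporter-positive thymic epithelial cells (TECs) from the TECs that carried neither reporter. A gene was kept when its CPM (the count scaled to the library total) in all 6 reporter-positive libraries lay above both CCL21-RANK- libraries, which held for 2099 genes (9.79%), or below both, which held for 1818 genes (8.48%). The table lists 55450 genes in all, and 17534 tested genes lay on neither side. Because the rule reads the measured values of this comparison, the differences from CCL21-RANK- TECs are given as a description. The difference between the reporter-positive populations did not enter the rule directly and is tested gene by gene. The rule reads the same 6 libraries, so counts of those calls within the shared genes are a description.

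All cells came from embryos at E17 that carried tdTomato in 1 copy of the Ccl21a locus and a transgenic Venus reporter of Tnfrsf11a, the gene for RANK. The study describes mice with tdTomato in both Ccl21a copies as lacking CCL21. CD45-EpCAM+ TECs were sorted into tdTomato+ Venus- cells (CCL21+RANK-, 3 libraries), tdTomato- Venus+ cells (CCL21-RANK+, 3 libraries) and cells without either fluorescence (CCL21-RANK-, 2 libraries). Every group therefore shares both reporter alleles, and no library without them was compared. The study's reporting checklist calls its replicates biological, while the labels give neither the number of embryos behind a library nor whether libraries of 1 group came from separate litters. The libraries held between 42751858 and 71625319 expected counts.

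Medullary TECs present self-antigens to developing T cells, and they attract those cells through chemokines such as CCL21. RANK is a receptor of the TNF receptor superfamily that signals through the NF-kB pathway, in which p100 (Nfkb2) and RelB form the noncanonical arm, and RANK signalling is needed for mTECs that express the self-antigen regulator Aire. Medullary cells are usually told from cortical TECs by keratins 5 and 14, while cortical TECs make the Notch ligand Dll4 and the chemokine Cxcl12. The keratin intermediate filaments, MHC molecules, NF-kB components and Notch and FGF targets described below were looked up in lists of known pathway members.

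The sort genes followed the labels. Ccl21a was at 561, 346 and 305 RPKM (CPM per kilobase of exon) in the CCL21+RANK- libraries, at 152, 95.9 and 78.2 in CCL21-RANK+ libraries, but at 6.89 and 8.88 in the CCL21-RANK- pair. Tnfrsf11a was at 8.78, 9.44 and 10.3 RPKM in CCL21+RANK- libraries, at 111, 93.1 and 107 in CCL21-RANK+ libraries, and at 2.62 and 2.26 in CCL21-RANK- libraries. Each gene thus stood above the CCL21-RANK- TECs in both populations, also in the one not sorted for it. Reads of Ccl21a are shared with near-identical copies, and Ccl21a took 92.1% to 94.7% of the counts of the copies in CCL21+RANK- libraries, 60.9% to 77.4% in CCL21-RANK+ libraries and 93.1% and 93.3% in CCL21-RANK- libraries, so its level is uncertain.

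The medullary label held only in part for the CCL21+RANK- libraries. The summed level of 13 cortical TEC genes was 3705, 3268 and 3668 RPKM there, against 2702 and 2893 in the CCL21-RANK- pair and 341, 435 and 281 in CCL21-RANK+ TECs. The most abundant of the 13, the cathepsin L gene Ctsl, made up much of the sum, at 1480, 1114 and 1305 RPKM in CCL21+RANK- libraries against 707 and 800.1 in the CCL21-RANK- pair. Singly against CCL21-RANK- TECs, 1 of the 13 was called higher and 1 lower in CCL21+RANK- TECs, while all 13 were called lower in CCL21-RANK+ TECs. Both populations are called reporter-positive TECs here. No member of the 7 TEC identity markers met the rule in either direction, but the keratin genes Krt8 and Krt18 among them were called lower in the reporter-positive contrast. The 7 summed to 3717, 3678 and 4435 RPKM in CCL21+RANK- TECs, to 1485, 1437 and 1306 in CCL21-RANK+ TECs, and to 3951 and 4298 in the CCL21-RANK- pair. Singly against CCL21-RANK- TECs, 4 of the 7 were called lower and 1 higher in CCL21-RANK+ TECs.

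Markers of other cells moved with the groups. The summed level of 12 thymocyte markers was 12.9, 5.4 and 7.14 RPKM in CCL21+RANK- libraries, 23.7, 10.5 and 19.1 in CCL21-RANK+ libraries, and 4.01 and 3.47 in CCL21-RANK- libraries. Of these 12 markers 9 met the rule on the higher side and 5 were called higher, and the most abundant, the recombinase gene Rag1, reached 6.31 RPKM at most. The 8 myeloid markers summed to 78.0, 21.2 and 26.5 RPKM in CCL21-RANK+ libraries, mostly lysozyme (Lyz2), and to no more than 1.40 in any other library, where up to 4 of the 8 were at 0. The 4 B cell markers summed to 9.89, 4.78 and 5.35 RPKM in CCL21-RANK+ libraries and to at most 0.902 elsewhere, with Cd79b the most abundant. Among mesenchymal markers, 8 in all and led by Col1a1, the sum was 53.4, 27.9 and 33.6 RPKM in CCL21-RANK+ libraries and at most 4.64 elsewhere. The myeloid markers Csf1r and Itgax and the B cell marker Cd79b met the rule on the higher side, and no mesenchymal marker did. Lyz2, Cd79b and 4 mesenchymal markers (Pdgfrb, Col1a2, Dcn and Lum) were called higher in the reporter-positive contrast. Parathyroid markers (Pth, Gcm2, Chga and Casr) summed to 7122, 1750 and 1955 RPKM in CCL21+RANK- libraries and to no more than 24.9 in any other. All 4 were called higher in the reporter-positive contrast and in CCL21+RANK- TECs alone, and Casr met the rule on the higher side. CCL21-RANK+ TECs alone gave 1 higher and 1 lower call among the 4. Endothelial markers, led by Tek, summed to 5.78, 3.18 and 2.24 RPKM in CCL21-RANK+ libraries and to at most 0.511 elsewhere, and 2 of them met the rule. Erythroid markers varied within every group, at 6.61, 164 and 59.4 RPKM, then 184, 285 and 300, against 453 and 57.1, and held no member. The 4 neural markers held none either, but 3 of them were called higher in the single comparison of CCL21-RANK+ with CCL21-RANK- TECs. The part of these cells in the results below was not tested, and in bulk libraries fewer cells of a type and less RNA per cell cannot be told apart.

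**Figure D1:**
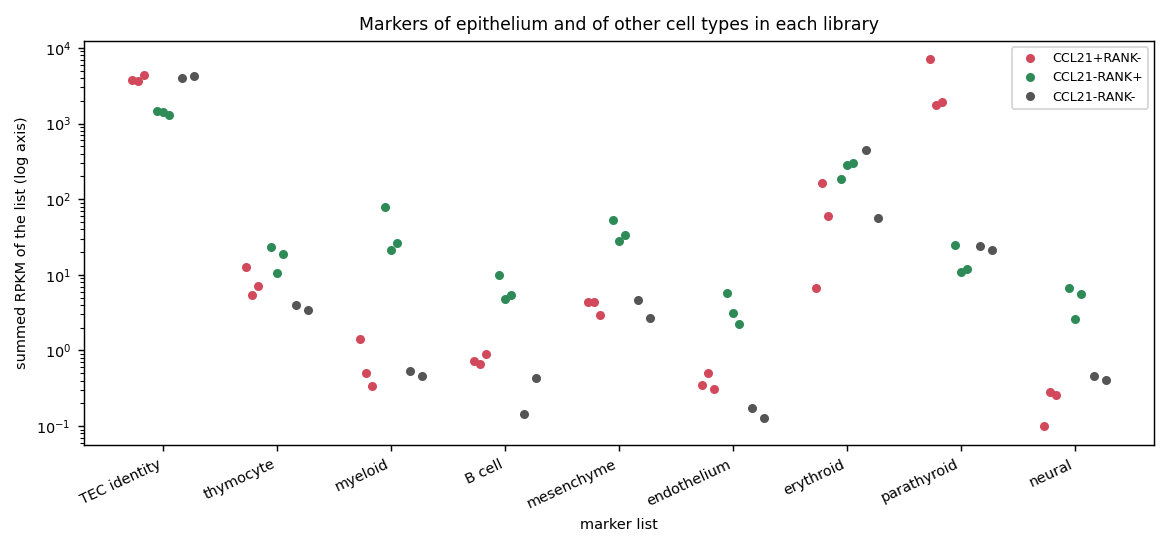
Summed RPKM (log axis) of each marker list in each of the 8 libraries, coloured by group, with 1 point a library. Parathyroid markers stood high in the 3 CCL21+RANK- libraries, and myeloid, B cell and mesenchymal markers in the 3 CCL21-RANK+ libraries.

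The contrast of the reporter-positive mean (both populations with equal weight) over CCL21-RANK- TECs was fitted with edgeR, and a gene was called when the adjusted p was under 0.05, the fold over 1.5 and the mean over 1 RPKM in the higher group. It called 1775 genes higher (8.27%) and 1777 lower (8.28%) of 21451. Of the 2099 genes above both CCL21-RANK- libraries 1079 were called higher (5.03% of tested genes), and of the 1818 below both, 872 were called lower (4.07%). The remaining 696 higher and 905 lower calls lay outside the rule. With all 6 reporter-positive libraries as a single group, so that the difference between the populations entered the spread, 89 genes were called higher and 51 lower. Without CCL21-RANK- replicate 2 the calls were 1149 and 1094, and without replicate 1 they were 1211 and 1331.

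The margin between the groups was small for many of these genes. The nearest reporter-positive and CCL21-RANK- libraries were at least 1.5-fold apart for 925 of the 2099 higher and 248 of the 1818 lower genes, and less than 1.1-fold apart for 424 and 830. Just inside the rule stood Dtx1, which in CPM was 27.6 in CCL21+RANK- replicate 3 against 27.9 in CCL21-RANK- replicate 1. Just outside stood Traf6, at 47.4 CPM in CCL21+RANK- replicate 2 against 47.6 in CCL21-RANK- replicate 2. The nearest reporter-positive library was a CCL21+RANK- library for 78.2% of the higher and 73.8% of the lower genes. CCL21-RANK- replicate 1 was the nearer of the pair for 80.5% of the lower genes, and leaving it out raised the lower genes from 1818 to 4073. Leaving out CCL21-RANK- replicate 2 raised the higher genes from 2099 to 3415, and without CCL21+RANK- replicate 3 the lower genes numbered 2753. By the construction of the rule, leaving out a library can only add genes.

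**Figure D2:**
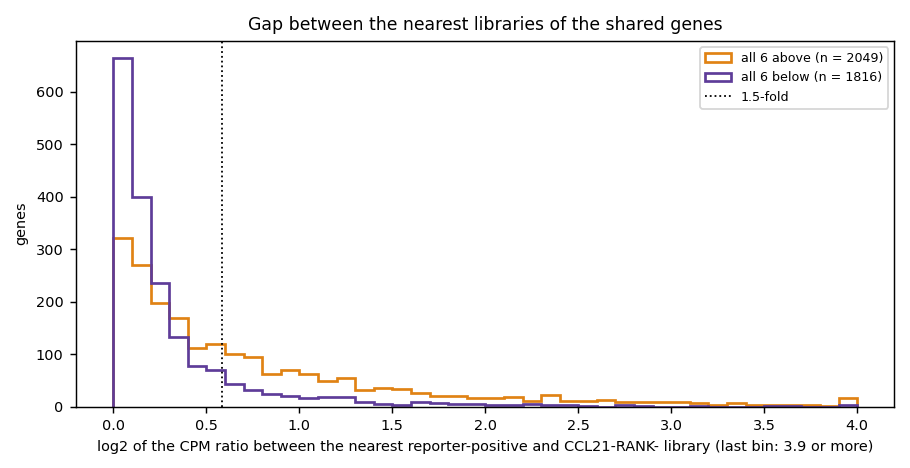
Numbers of genes (y) by the log2 CPM ratio between the nearest reporter-positive and CCL21-RANK- library (x), for genes with all 6 libraries above (n = 2049 with a ratio) or below (n = 1816). The dotted line marks 1.5-fold, which 925 higher and 248 lower genes reached, genes with no ratio included.

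The shared genes were also compared between the reporter-positive populations. Over all tested genes, CCL21+RANK- against CCL21-RANK+ TECs gave 3311 calls higher in CCL21+RANK- (15.4%) and 3307 higher in CCL21-RANK+ (15.4%). Of the 2099 higher genes, 728 (34.7%) were called higher still in CCL21-RANK+ TECs, 103 (4.91%) higher in CCL21+RANK- TECs and 1268 (60.4%) were not called. Of the 1818 lower genes, 524 (28.8%) were called higher in CCL21+RANK- TECs, 25 (1.38%) the reverse, and 1269 (69.8%) were not called. The median log2 difference, CCL21+RANK- over CCL21-RANK+, was -0.60 over the higher genes, 0.39 over the lower genes and -0.11 over all tested genes. The rule picked these genes from the same libraries, so their shares are a description and not a test against all tested genes. A gene without a call here has not been shown to be equal in both populations. Each single comparison with CCL21-RANK- TECs shares the same 2 libraries, and CCL21+RANK- gave 934 higher (4.35%) and 786 lower calls (3.66%) against 3088 (14.4%) and 3244 (15.1%) for CCL21-RANK+.

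**Figure D3:**
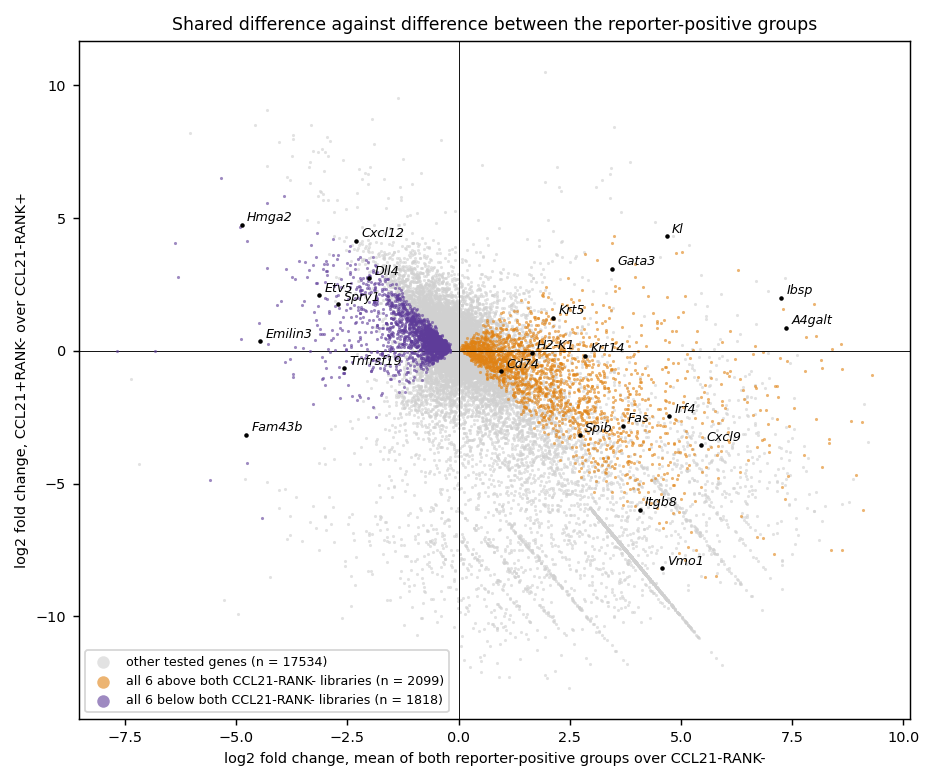
Log2 fold change of the reporter-positive mean over CCL21-RANK- (x) against the log2 fold change of CCL21+RANK- over CCL21-RANK+ (y) for 21451 genes, 1 point a gene. The wedge of coloured points follows from the rule, since both populations must lie on the same side of CCL21-RANK-. Within it, 728 higher genes were called higher in CCL21-RANK+ and 103 in CCL21+RANK-.

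The lists below are counted in the reporter-positive contrast, whose calls took 8.27% (higher) and 8.28% (lower) of all tested genes, and by the rule, which kept 9.79% and 8.48%. A call there can come from 1 population, so calls of each population alone against CCL21-RANK- TECs are given for several lists. Of 15 medullary keratin and epithelial genes, 7 rose and none fell (4 and 2 in CCL21+RANK- alone, 9 and 3 in CCL21-RANK+ alone), and 6 met the rule, namely Krt5, Krt14, Krt17, the tight junction claudins Cldn3 and Cldn4, and the surface protein gene Ly6a. Krt14 (chr11:100203162-100207548, minus strand, mm10), the partner of keratin 5 in basal epithelial filaments, was at 61.3, 55.1 and 41.8 RPKM in CCL21+RANK- libraries, at 82.4, 68.1 and 47.3 in CCL21-RANK+ libraries, and at 8.03 and 7.74 in CCL21-RANK- libraries. All 6 reporter-positive libraries stood far above the other pair, with a log2 fold change of 2.84 ± 0.25 (SE). The populations differed from each other by -0.18 ± 0.21 on the log2 scale (edgeR, adjusted p = 0.487). Krt5 (chr15:101707070-101712898, minus strand) was at 1048, 942 and 871 RPKM in CCL21+RANK- libraries, at 375, 561 and 368 in CCL21-RANK+ libraries and at 158 and 122 in CCL21-RANK- libraries. It was thus raised in both populations, and more in CCL21+RANK- TECs, by 1.25 ± 0.23 (log2, edgeR adjusted p = 0.00124). Krt17, a keratin of stressed and appendage epithelia, was at 1015, 851 and 907 RPKM, then 724, 821 and 661, against 399 and 447 in CCL21-RANK- libraries. Its log2 fold change was 0.91 ± 0.15, and CCL21+RANK- TECs were higher by 0.45 ± 0.14 (edgeR adjusted p = 0.0215), under the fold needed for a call. Ly6a lost its call without CCL21-RANK- replicate 1 (edgeR adjusted p = 0.0724).

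**Figure D4:**
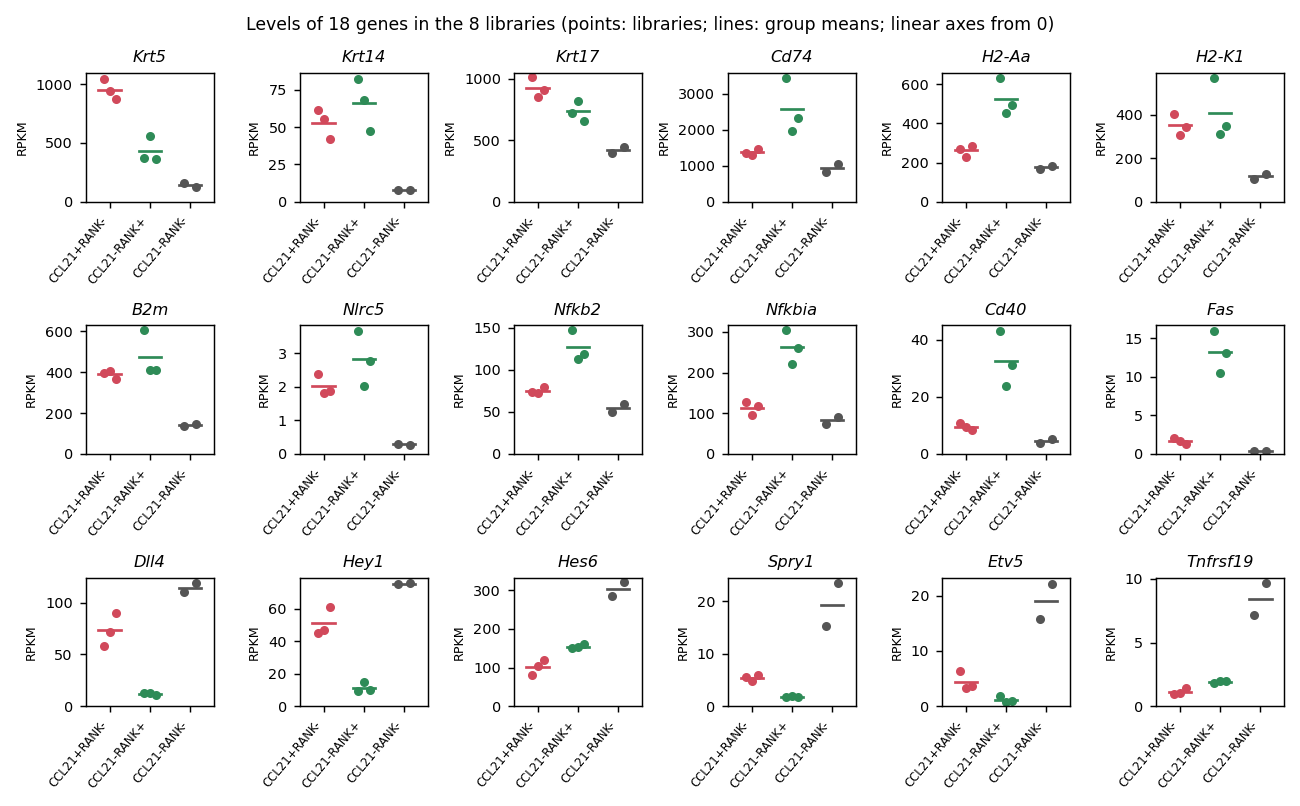
RPKM (y, linear axes from 0) of 18 genes in the 8 libraries by group (x), with points for libraries and lines for group means. The 12 genes from Krt5 to Fas lie above both CCL21-RANK- libraries in all 6 reporter-positive libraries, and the 6 from Dll4 to Tnfrsf19 lie below both.

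Of 21 cell junction genes 11 rose and 5 fell (7 and 1 in CCL21+RANK- alone, 11 and 7 in CCL21-RANK+ alone). On the higher side 9 met the rule and on the lower side 2, Dsc2 and Dsc3, and the lower count is near the share over all tested genes. Pkp1, a plakophilin of desmosomes, was at 87.7, 75.7 and 63.9 RPKM in CCL21+RANK- libraries, at 46.5, 35.2 and 28.6 in CCL21-RANK+ libraries and at 12.6 and 13.3 in CCL21-RANK- libraries. Its log2 fold change was 1.97 ± 0.20, and it was 1.18 ± 0.18 higher in CCL21+RANK- TECs (edgeR adjusted p = 0.000458). The desmosomal cadherin Dsc3 went the other way, at 21.7, 17.2 and 22.7 RPKM in CCL21+RANK- libraries, 3.07, 3.15 and 2.10 in CCL21-RANK+ libraries and 53.2 and 59.0 in CCL21-RANK- libraries. It fell by 2.95 ± 0.13 on the log2 scale, and CCL21+RANK- TECs stood 3.00 ± 0.16 above CCL21-RANK+ TECs (edgeR adjusted p = 8.83e-07). Its relative Dsc2 also fell, while the desmoglein Dsg2, the tight junction protein gene F11r and the gap junction gene Gja1 rose, by 0.84 ± 0.15, 1.33 ± 0.20 and 1.19 ± 0.19.

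Of 22 genes of the basement membrane and its receptors, 7 were called higher and 7 lower, and 9 met the rule above and 3 below. Leaving out CCL21-RANK- replicate 1 left 2 higher calls, and leaving out either CCL21-RANK- replicate 2 or CCL21+RANK- replicate 1 left 4. The laminin chains Lama4 and Lama5 fell, by 1.66 ± 0.12 and 1.65 ± 0.10 on the log2 scale, as did the hyaluronan receptor gene Cd44, by 0.73 ± 0.11. The integrin subunit Itgb5 was at 12.0, 4.62 and 5.76 RPKM, then 6.46, 3.97 and 3.85, against 0.505 and 0.641 in CCL21-RANK- libraries, a log2 fold change of 3.32 ± 0.41. Another subunit, Itgb8, met the rule with levels at the edge of detection in CCL21+RANK- TECs, at 0.0939, 0.0570 and 0.0984 RPKM against 0.0509 and 0.0278 in CCL21-RANK- libraries, while CCL21-RANK+ libraries stood at 6.75, 4.42 and 6.16. The populations differed by -5.99 ± 0.27 (log2, edgeR adjusted p = 4.22e-07), so its fold over CCL21-RANK- came almost wholly from CCL21-RANK+ TECs. The calls of Itgb4, Itga3, Lamb2 and Col17a1 were lost without CCL21-RANK- replicate 1, at edgeR adjusted p = 0.118, 0.156, 0.149 and 0.162, and those of Itgb4, Itga3 and Lamb2 also without replicate 2, at 0.0559, 0.0631 and 0.29. Lamb2 lost its call with any CCL21-RANK+ library left out as well (edgeR adjusted p = 0.0578, 0.0638 and 0.0558).

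**Figure D5:**
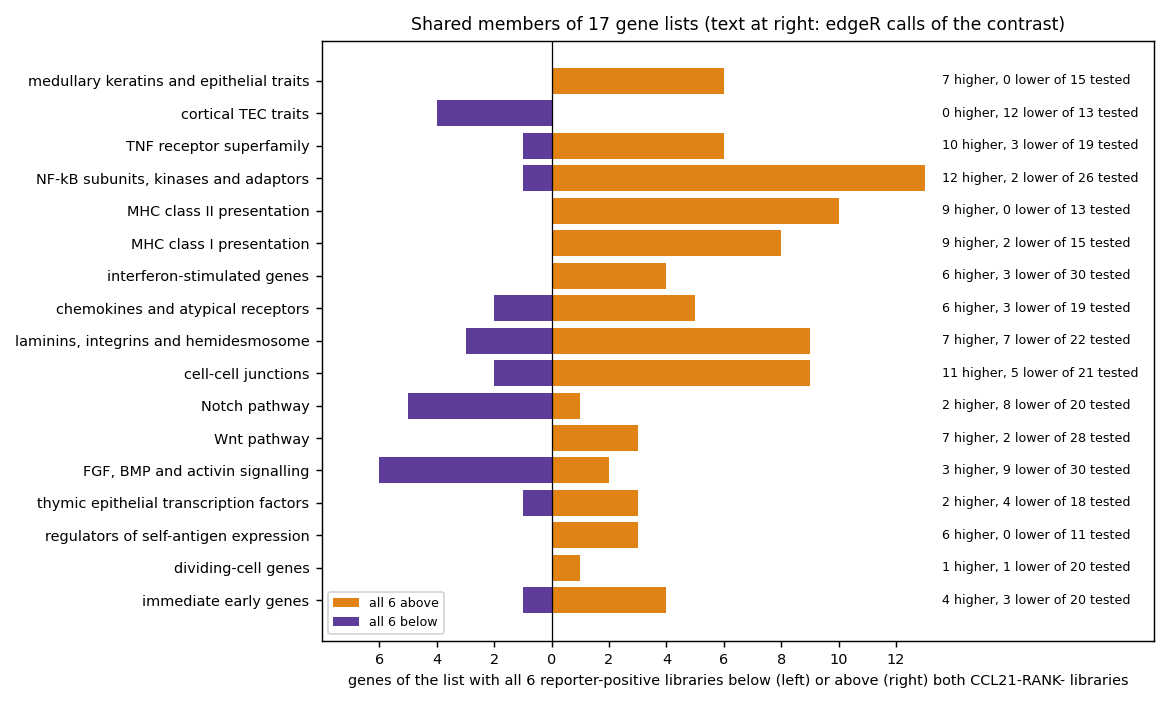
Genes of 17 lists (y) with all 6 reporter-positive libraries above (right) or below (left) both CCL21-RANK- libraries (x, number of genes), with the edgeR calls of the reporter-positive contrast written at the right. MHC class II (10 above, none below) and NF-kB genes (13 above, 1 below) lie mostly to the right, and Notch (1 above, 5 below) and FGF and BMP genes (2 above, 6 below) mostly to the left.

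Of 13 tested genes of MHC class II presentation, 9 rose and none fell in the reporter-positive contrast, and 10 met the rule, namely Ciita, Cd74, H2-Aa, H2-Ab1, H2-Eb1, H2-DMa, H2-DMb2, H2-Oa, H2-Ob and Ctss. Taken singly against CCL21-RANK- TECs, CCL21+RANK- gave 5 higher and 0 lower calls among the 13, and CCL21-RANK+ gave 9 higher and 1 lower. The median log2 fold change of the 13 was 0.95, against 0.01 over all tested genes. Cd74, the invariant chain that occupies class II molecules until peptide is loaded, was the most abundant of the called shared higher genes, predicted and mitochondrial genes aside, at 1363, 1297 and 1451 RPKM in CCL21+RANK- libraries, 3437, 1964 and 2313 in CCL21-RANK+ libraries and 817 and 1045 in CCL21-RANK- libraries. Both populations stood above the CCL21-RANK- pair, CCL21-RANK+ TECs the more so, with a difference between populations of -0.78 ± 0.18 (log2, edgeR adjusted p = 0.00541). H2-Aa, the class II alpha chain, was at 271, 230.0 and 286 RPKM, then 632, 454 and 492, against 167 and 183 in CCL21-RANK- libraries, and differed between the populations by -0.88 ± 0.13 (edgeR adjusted p = 0.000337). The beta chain H2-Eb1 was at 438, 354 and 416 RPKM, then 967, 614 and 676, against 212 and 259, and differed by -0.77 ± 0.15 (edgeR adjusted p = 0.00216). For H2-Ab1, at 712, 619 and 719.8, then 1244, 760.0 and 856, against 410.0 and 528 RPKM, the difference of -0.35 ± 0.17 did not pass (edgeR adjusted p = 0.102).

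Ciita (chr16:10480059-10528418, plus strand), the transactivator that class II genes require, had the opposite order. It was at 30.9, 29.5 and 25 RPKM in CCL21+RANK- libraries, at 23.3, 15.4 and 17.7 in CCL21-RANK+ libraries and at 11.6 and 15.1 in CCL21-RANK- libraries, and CCL21+RANK- TECs stood 0.74 ± 0.16 above CCL21-RANK+ TECs (log2, edgeR adjusted p = 0.00333). Of the 2 populations, the transactivator was thus higher where Cd74, H2-Aa and H2-Eb1 were lower. H2-DMb2, part of the peptide exchange factor, rose by 2.78 ± 0.21, from 15.4 and 18.3 RPKM in CCL21-RANK- libraries to between 65.2 and 98.1 in CCL21+RANK- and between 141 and 237 in CCL21-RANK+ libraries. The protease cathepsin S (Ctss) rose by 4.06 ± 0.31 and H2-Oa, of the exchange inhibitor, by 1.99 ± 0.21. Class II genes are also expressed by myeloid and B cells, whose markers were highest in CCL21-RANK+ libraries. In the CCL21+RANK- libraries myeloid markers summed to 1.40, 0.498 and 0.343 RPKM, against 0.534 and 0.462 in the CCL21-RANK- pair. B cell markers summed to 0.726, 0.660 and 0.902 RPKM in the same CCL21+RANK- libraries, against 0.145 and 0.429, and the part of these cells in the class II levels was not tested. The calls of Cd74, H2-Ab1 and Ciita were lost without CCL21-RANK- replicate 1 (edgeR adjusted p = 0.0683, 0.131 and 0.108), and that of H2-Ab1 also without replicate 2 (0.0572). Ifi30, a thiol reductase gene called outside the rule, lost its call without either (0.0808 and 0.0856), and the higher calls of the list fell from 9 to 5 without replicate 1.

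Promoter windows of RefSeq (GRCm38.p6, 250 bases before to 50 after each start) were searched for CTGATTGG, a form of the Y box of class II genes, on both strands. All windows of the chromosome that holds Cd74 were left out of the search and of its shares. Genes there therefore count as having no window. The letters stood in 3 of the 7 class II genes of the higher side that had a window, against 5.16% of the windows of tested genes and 4.67% of those of the higher called genes. They also stood in 3 of the 7 class I genes of the higher side with a window, H2-D1, H2-K1 and H2-T23. The list counts are of genes and the shares are of windows, and a gene can have several windows. The 3 stretches are shown because the box lies within 62 bases of the start in each, with the 8 letters in capitals and each sequence 5′ to 3′ on the strand of its gene. The letters were chosen with the values known, and a match is a description, not evidence of binding.
H2-Aa (chr17:34287858-34287883, minus strand): gagaattttCTGATTGGttctggcga
H2-Eb1 (chr17:34305796-34305821, plus strand): cctttgatgCTGATTGGctcccagca
H2-Oa (chr17:34092324-34092349, plus strand): agaactgctCTGATTGGctgcttacc

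Of 15 genes of MHC class I presentation, 9 rose, 8 met the rule and 2 proteasome subunits, Psmb9 and Psmb10, fell, a count of 2 that became 1 with any 1 of 5 libraries left out. No member met the rule on the lower side. Singly against CCL21-RANK- TECs, CCL21+RANK- gave 10 higher and 0 lower calls, and CCL21-RANK+ gave 7 higher and 2 lower. H2-K1 (chr17:33996017-34000347, minus strand), a class I heavy chain, was at 404, 307 and 345 RPKM in CCL21+RANK- libraries, at 568, 313 and 347 in CCL21-RANK+ libraries and at 107 and 126 in CCL21-RANK- libraries. The log2 fold change was 1.64 ± 0.21 and the difference between populations -0.08 ± 0.19 (edgeR adjusted p = 0.744). B2m (chr2:122147686-122153083, plus strand), the light chain, was at 398, 407 and 368 RPKM, then 605, 412 and 411, against 137 and 146. It rose by 1.55 ± 0.16 and differed by -0.15 ± 0.15 (edgeR adjusted p = 0.421). H2-D1, at 372, 279.9 and 342 RPKM, then 657, 342 and 410.4, against 86.3 and 114, rose by 1.92 ± 0.23 and differed by -0.37 ± 0.20 (edgeR adjusted p = 0.146). Nlrc5 (chr8:94434356-94527272, plus strand), the transactivator of class I genes, was at 2.37, 1.82 and 1.87 RPKM, then 3.66, 2.02 and 2.77, against 0.290 and 0.278. It rose by 3.00 ± 0.24, and the populations differed by -0.35 ± 0.20 (edgeR adjusted p = 0.165). The 6 reporter-positive libraries did not overlap the CCL21-RANK- pair for any of these 4 genes, while the populations overlapped each other for H2-K1, H2-D1 and Nlrc5 and lay just apart for B2m. H2 genes are near-identical relatives whose reads the counting may have split, so their single levels are uncertain.

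The immunoproteasome subunit Psmb8 and the proteasome activator subunits Psme1 and Psme2 rose unequally. Psmb8 was at 2.67, 3.03 and 3.19 RPKM in CCL21+RANK- libraries, at 19.1, 12.3 and 16.2 in CCL21-RANK+ libraries and at 1.02 and 1.01 in CCL21-RANK- libraries, a difference between populations of -2.29 ± 0.15 (log2, edgeR adjusted p = 2.54e-06). Psme1 rose by 2.61 ± 0.14 and Psme2 by 0.88 ± 0.10 in the reporter-positive contrast. Of 30 interferon-stimulated genes, 6 were called higher (3 without CCL21-RANK- replicate 1) and 3 lower in the reporter-positive contrast, and 4 met the rule, Mx1, Rsad2, Igtp and Cxcl10. Against CCL21-RANK- TECs, 18 were called higher and none lower in CCL21+RANK- TECs, and 3 higher and 11 lower in CCL21-RANK+ TECs. Between the populations 25 of the 30 were called higher in CCL21+RANK- TECs. Mx1 lost its call without CCL21-RANK- replicate 1 or 2 (edgeR adjusted p = 0.0781 and 0.071), and Rsad2 without replicate 2 (edgeR adjusted p = 0.0672).

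NF-kB components formed the longest series of shared genes in the lists. Of 26, 12 rose, 2 fell (1 with CCL21-RANK+ replicate 3 or either CCL21-RANK- library left out) and 14 met the rule, 13 on the higher side (Relb, Nfkb2, Nfkbia, Nfkbie, Ikbkb, Traf1, Traf2, Birc2, Birc3, Tnfaip3, Tnip1, Cyld and Tank) and Nfkb1 on the lower side. Against CCL21-RANK- TECs alone, 3 of the 26 were called higher and none lower in CCL21+RANK- TECs, and 12 higher and 5 lower in CCL21-RANK+ TECs. The same promoter windows were searched on both strands for the kB consensus, the binding sequence of NF-kB dimers. Windows were found for 11 of the 13 higher genes, and 7 held a match, against 10.5% of the 17701 windows of tested genes. Over the whole list, 10 of the 22 genes with a window held one. Among higher-side genes of other lists with a searched window, a match stood in 3 of 7 class I and 1 of 7 class II genes. None of the 5 TNF receptor, 5 cell junction and 4 immediate early genes with a searched window held one. In all, 15.6% of the 1050 windows of higher called genes and 11.1% of the 892 windows of lower called genes held one, again counted by window and not by gene. The stretches below come from 4 of the 7 higher NF-kB genes with a match, from the class I genes B2m and H2-K1 and from the chemokine gene Cxcl10. Each is written 5′ to 3′ on the strand of its gene, with the match in capitals. This motif, too, was chosen with the values known.
Nfkb2 (chr19:46304717-46304736, plus strand): gggccgaaaGGGGCTTTCCc
Nfkbia (chr12:55492658-55492685, minus strand): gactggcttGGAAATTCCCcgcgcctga
Nfkbie (chr17:45555585-45555612, plus strand): cagcaaacaGGGGGATTCCggaggggcg
Tnip1 (chr11:54962978-54963007, minus strand): tccatcatgGGGGAATTCCCCtcctgcctc
H2-K1 (chr17:34000439-34000467, minus strand): cccagggctGGGGATTCCCCatctccaca
B2m (chr2:122147552-122147579, plus strand): ctgaaaatgGGAAAGTCCCtttgtaacc
Cxcl10 (chr5:92348974-92349002, minus strand): cggtttacaGGGGACTTCCCtcgggttgc

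The test between the populations put 9 of the 26 higher on the CCL21-RANK+ side and 8 on the CCL21+RANK- side. Nfkb2 (chr19:46304320-46312385, plus strand), which encodes p100, was at 74.2, 72.1 and 79.3 RPKM in CCL21+RANK- libraries, at 148, 113 and 119 in CCL21-RANK+ libraries and at 50.4 and 59.4 in CCL21-RANK- libraries. It rose by 0.77 ± 0.11 and differed between the populations by -0.63 ± 0.11 (log2, edgeR adjusted p = 0.000855). Nfkbia, the inhibitor IkB alpha, was at 128, 94.9 and 118 RPKM, then 304, 222 and 261, against 74.4 and 90.4, a difference between populations of -1.08 ± 0.12 (edgeR adjusted p = 6.83e-05). The lowest CCL21+RANK- library lay close to the higher CCL21-RANK- library for this gene. Birc3, an adaptor ubiquitin ligase of the pathway, was at 21.9, 19.8 and 22.4 RPKM, then 66.2, 50.6 and 53.0, against 16.1 and 15.4, and differed by -1.28 ± 0.11 (edgeR adjusted p = 8.86e-06). Tnfaip3 (A20), a deubiquitinase that limits NF-kB, ran the other way, at 24.2, 17 and 16.4 RPKM in CCL21+RANK- libraries, 9.97, 9.998 and 9.37 in CCL21-RANK+ libraries and 8.63 and 8.18 in CCL21-RANK- libraries. It was 1.1 ± 0.16 higher in CCL21+RANK- TECs (edgeR adjusted p = 0.000316), and lost its call over CCL21-RANK- TECs without replicate 1 (0.0631) or replicate 2 (0.176) of that group.

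Nfkb1, which encodes the p105 precursor of the canonical arm, met the rule on the lower side. It was at 26.7, 25.3 and 26.1 RPKM in CCL21+RANK- libraries, at 16.1, 13.5 and 12.5 in CCL21-RANK+ libraries and at 28.3 and 34.8 in CCL21-RANK- libraries, and fell by 0.78 ± 0.10 on the log2 scale in the reporter-positive contrast. CCL21+RANK- TECs were close to the lower CCL21-RANK- library, with no call of their own, and stood 1.01 ± 0.11 above CCL21-RANK+ TECs (edgeR adjusted p = 4.76e-05). Relb rose by 0.62 ± 0.09, Nfkbie by 1.31 ± 0.13, Tnip1 by 1.26 ± 0.24 and Tank by 1.78 ± 0.16. Tnip1 lost its call without CCL21-RANK- replicate 1 (edgeR adjusted p = 0.0547).

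Of 19 tested TNF receptor superfamily members, 10 rose and 3 fell, and 7 met the rule, including the sort gene Tnfrsf11a. Singly against CCL21-RANK- TECs, CCL21+RANK- gave 5 higher and 1 lower calls, and CCL21-RANK+ gave 10 and 6. Cd40, the costimulatory receptor that acts with RANK in mTEC development, was at 10.7, 9.55 and 8.45 RPKM in CCL21+RANK- libraries, at 43, 23.7 and 31.0 in CCL21-RANK+ libraries and at 3.84 and 5.05 in CCL21-RANK- libraries. It rose by 1.94 ± 0.21 and differed between the populations by -1.63 ± 0.19 (log2, edgeR adjusted p = 7.6e-05). The death receptor gene Fas was at 2.10, 1.73 and 1.24 RPKM, then 15.9, 10.5 and 13.1, against 0.324 and 0.379, and differed by -2.82 ± 0.24 (edgeR adjusted p = 9.94e-06). Tnfrsf1b, the second TNF receptor, rose by 2.29 ± 0.25. Only Tnfrsf19 (chr14:60963875-61046490, minus strand), also known as Troy, met the rule on the lower side among the 19. It was at 0.923, 1.04 and 1.42 RPKM in CCL21+RANK- libraries, at 1.79, 2.01 and 1.95 in CCL21-RANK+ libraries and at 7.16 and 9.67 in CCL21-RANK- libraries, and fell by 2.57 ± 0.15, with CCL21-RANK+ TECs 0.66 ± 0.17 above CCL21+RANK- TECs (edgeR adjusted p = 0.00907). Tnfrsf12a rose by 1.69 ± 0.54, a call that was lost with any 1 of 5 libraries left out, either CCL21-RANK- library among them (edgeR adjusted p = 0.19 and 0.219).

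Of 19 chemokines and atypical receptors 6 rose and 3 fell (4 and 0 in CCL21+RANK- alone, 12 and 4 in CCL21-RANK+ alone). Ccl19, the other ligand of the CCL21 receptor CCR7, was at 4.40, 2.73 and 3.13 RPKM in CCL21+RANK- libraries, at 29.7, 8.45 and 14.3 in CCL21-RANK+ libraries and at 0.303 and 0.316 in CCL21-RANK- libraries. It rose by 4.54 ± 0.53, and was higher in CCL21-RANK+ TECs, unlike Ccl21a, by 2.2 on the log2 scale (CCL21+RANK- over CCL21-RANK+ -2.2 ± 0.40, edgeR adjusted p = 0.00121). Cxcl10, a ligand of CXCR3, was at 53.7, 64.3 and 52.2 RPKM, then 67.3, 63.5 and 52.4, against 31.7 and 24.7, and differed between the populations by 0.03 ± 0.17 (edgeR adjusted p = 0.914). Its call was lost without CCL21-RANK- replicate 2 (edgeR adjusted p = 0.0554). Cxcl16, a transmembrane chemokine, was at 19.1, 11.3 and 13.1 RPKM, then 11.0, 7.72 and 7.84, against 4.65 and 4.47, and stood 0.84 ± 0.19 higher in CCL21+RANK- TECs (edgeR adjusted p = 0.00489). Cxcl12 and the scavenging receptor gene Ackr4 met the rule on the lower side. For both, CCL21+RANK- libraries were near the CCL21-RANK- level (Cxcl12 at 87.0, 82.3 and 86.9 against 95.0 and 106 RPKM), and CCL21-RANK+ libraries were far below, at 3.42, 7.87 and 4.25.

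Regulators of self-antigen expression rose in part, and none of the 11 tested fell. Of the 11, 6 were called higher, and 3 of them met the rule, Irf4 and Spib being described here. Aire did not, since CCL21+RANK- libraries, at 0.802, 0.807 and 0.631 RPKM, overlapped the CCL21-RANK- libraries, at 0.810 and 0.120. Spib (chr7:44525993-44532071, minus strand), an ETS factor, was at 13.2, 13.4 and 12.9 RPKM in CCL21+RANK- libraries, at 146, 120.4 and 125 in CCL21-RANK+ libraries and at 5.78 and 6.27 in CCL21-RANK- libraries. CCL21+RANK- TECs stood 1.13 above CCL21-RANK- TECs on the log2 scale but far below CCL21-RANK+ TECs, a difference between populations of -3.18 ± 0.11 (edgeR adjusted p = 1.25e-07). Irf4, an interferon regulatory factor, was at 5.15, 2.6 and 2.90 RPKM, then 19.3, 22 and 22.5, against 0.330 and 0.293, and differed by -2.46 ± 0.24 (edgeR adjusted p = 2.55e-05).

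Of 20 Notch pathway genes 8 fell (4 in CCL21+RANK- alone, 13 in CCL21-RANK+ alone) and 2 rose (none without CCL21-RANK- replicate 2), the latter near the background share, and Dll4, Hes6, Hey1, Nrarp and Dtx1 met the rule below and Notch1 above. Dll4 (chr2:119325784-119335962, plus strand), the ligand that commits progenitors to the T lineage, was at 58.5, 71.6 and 90.2 RPKM in CCL21+RANK- libraries, at 12.4, 12.3 and 11.1 in CCL21-RANK+ libraries and at 110.0 and 119 in CCL21-RANK- libraries. It fell by 2.01 ± 0.13, with CCL21+RANK- TECs 2.74 ± 0.15 above CCL21-RANK+ TECs (log2, edgeR adjusted p = 8.57e-07). The target gene Hey1 was at 45.2, 46.6 and 60.9 RPKM, then 9.19, 14.7 and 10.2, against 75.2 and 75.8, and differed likewise by 2.27 ± 0.20 (edgeR adjusted p = 1.17e-05). Hes6 (chr1:91411483-91414038, minus strand), a bHLH relative of the Hes factors, was at 80.4, 105 and 119 RPKM, then 149.7, 153 and 159.9, against 284 and 321. It fell by 1.33 ± 0.13 and was lowest in CCL21+RANK- TECs, by -0.49 ± 0.14 (edgeR adjusted p = 0.0139), under the fold needed for a call. Nrarp, a target that damps the pathway, was at 7.87, 9.61 and 11.3 RPKM, then 6.87, 8.70 and 7.22, against 14 and 15.9, and differed by 0.45 ± 0.16 (edgeR adjusted p = 0.0362). The receptor gene Notch1 rose by 0.64 ± 0.11, from 8.97 and 9.12 RPKM in CCL21-RANK- libraries to between 10.7 and 12.3 in CCL21+RANK- and between 17.9 and 20.04 in CCL21-RANK+ libraries, and lost its call without CCL21-RANK- replicate 2 (edgeR adjusted p = 0.0513).

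Of 30 FGF, BMP and activin genes, 9 fell, among them targets and feedback inhibitors of FGF signalling, and 3 rose, Fgf21, Bmp2 and Tgfb2, near the background share, and 6 met the rule below, Spry1, Etv4, Etv5, Bmp4, Bmpr1b and Id1. Spry1 (chr3:37639947-37644598, plus strand), a feedback inhibitor of receptor tyrosine kinases, was at 5.52, 4.89 and 5.94 RPKM in CCL21+RANK- libraries, at 1.66, 1.91 and 1.66 in CCL21-RANK+ libraries and at 15.4 and 23.5 in CCL21-RANK- libraries. It fell by 2.70 ± 0.13, and the populations differed by 1.76 ± 0.15 (log2, edgeR adjusted p = 1.18e-05). Etv5 (chr16:22381309-22439719, minus strand), an ETS factor induced by FGF signals, was at 6.42, 3.25 and 3.58 RPKM, then 1.77, 0.782 and 0.872, against 15.7 and 22.2. It fell by 3.13 ± 0.28, and CCL21+RANK- TECs stood 2.09 ± 0.33 above CCL21-RANK+ TECs (edgeR adjusted p = 0.000521). Both genes were thus highest in CCL21-RANK- TECs, lower in CCL21+RANK- TECs and lowest in CCL21-RANK+ TECs. Etv4 fell by 2.77 ± 0.21, the BMP receptor gene Bmpr1b by 2.41 ± 0.27 and the BMP target Id1 by 1.93 ± 0.25. Bmp4, a ligand made in the early thymus, was at 0.268, 0.406 and 0.0726 RPKM, then 0.396, 0.284 and 0.114, against 1.28 and 1.62, with no passing difference between the populations (0.07 ± 0.67, edgeR adjusted p = 0.94). Its call was lost without either CCL21-RANK- library (edgeR adjusted p = 0.0573 and 0.0886).

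On the higher side Fgf21 and Fst met the rule, no larger a share of the 30 than over all tested genes. Each population alone gave 4 higher and 7 lower calls for CCL21+RANK- and 5 and 13 for CCL21-RANK+. Fst, follistatin, which binds activin, was at 1.62, 1.62 and 1.01 RPKM in CCL21+RANK- libraries, at 0.833, 0.426 and 0.454 in CCL21-RANK+ libraries and at 0.0355 and 0.0152 in CCL21-RANK- libraries. It met the rule and was 1.46 ± 0.40 higher in CCL21+RANK- TECs (log2, edgeR adjusted p = 0.0111), but had a mean under 1 RPKM over the reporter-positive libraries and so no call. Fgf21, an endocrine FGF, rose by 3.37 ± 0.31 and was highest in CCL21-RANK+ libraries, at 241, 103 and 134 RPKM against 2.73 and 3.61 in CCL21-RANK- libraries. Of 28 Wnt genes 7 rose (4 without CCL21-RANK- replicate 1 and 3 without replicate 2) and 2 fell (1 without replicate 2), and Wnt5a, Fzd1 and Sfrp1 met the rule. The lower calls and the members of the rule are near the shares over all tested genes. Wnt5a, a ligand of the noncanonical branch, was at 5.57, 2.59 and 3.28 RPKM, then 1.37, 0.938 and 1.15, against 0.788 and 0.550, a difference between populations of 1.85 ± 0.29 (edgeR adjusted p = 0.000465). Its call was lost without CCL21-RANK- replicate 2 (edgeR adjusted p = 0.0693). The receptor Fzd1 rose by 1.11 ± 0.14, and the secreted Wnt antagonist Sfrp1 by 1.31 ± 0.19.

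The remaining lists are given in brief. Of 13 cortical genes 12 were called lower in the reporter-positive contrast, nearly all through CCL21-RANK+ TECs by the counts given above, and 4 met the rule, all on the lower side (Dll4, Cxcl12, Ackr4 and Kitl), and between the populations all 13 were called higher on the CCL21+RANK- side. Of 18 TEC transcription factors, 2 rose (1 with CCL21+RANK- replicate 1 or either CCL21-RANK- library left out) and 4 fell, and the rule kept Tbx1, Sox4 and Sox9 above and Eya1 below, none of them called. Sox4, at 72.8 RPKM in both CCL21+RANK- replicate 2 and CCL21-RANK- replicate 2, was among the narrowest members. Of 20 genes of dividing cells, the cyclin D1 gene Ccnd1 was the sole member, and against CCL21-RANK- TECs none rose and 16 fell in CCL21+RANK- TECs, while 7 rose and none fell in CCL21-RANK+ TECs. Of 20 immediate early genes 4 rose and 3 fell (2 and 2 without CCL21-RANK- replicate 1, 1 and none without replicate 2), with Jund, Klf2, Klf4 and Klf6 above and Fosl1 below. The lower calls numbered 0 and 1 when CCL21-RANK+ replicate 2 or 3 was left out. These genes respond to tissue dissociation as well as to signals, and the calls of Jund, Klf2 and Fosl1 were lost without either CCL21-RANK- library, that of Klf6 without replicate 2 of them, and those of Klf2 and Fosl1 also without some reporter-positive libraries. Fosl1 lost its call with the replicate number as a block too (edgeR adjusted p = 0.079), and with DESeq2 size factors (adjusted p = 0.0514).

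The genes with the largest fold changes were outside these lists. On the higher side, the shared called genes of at least 5 mean CPM that ranked highest by fold included Spp1, Sult1c2, A4galt, Ibsp, Serpina3j, Ang4, Gal3st2, Pappa and Fcer2a. Both CCL21-RANK- libraries had 0 counts of Sult1c2, and Spp1, Ang4 and Gal3st2 had 1 or 2 counts over that pair, so no fold is given for these 4 genes. Sult1c2 (1, 1 and 8 counts), Ang4 (3, 2 and 10) and Gal3st2 (2, 18 and 3) were barely detected in CCL21+RANK- libraries, and these 3 genes had no call in CCL21+RANK- TECs alone. Pappa and Fcer2a had none there either, with an adjusted p under 0.05 but a mean under 1 RPKM. A4galt (chr15:83226722-83251774, minus strand), the synthase of globotriaosylceramide, was at 9.92, 2.19 and 3.28 RPKM in CCL21+RANK- libraries, at 5.26, 1.66 and 2.42 in CCL21-RANK+ libraries and at 0.0325 and 0.0123 in CCL21-RANK- libraries. The populations overlapped, with a difference of 0.86 ± 0.56 (log2, edgeR adjusted p = 0.224). Serpina3j, one of a cluster of near-identical serpin genes whose reads may be shared, was at 3.74, 3.69 and 2.54 RPKM, then 21.6, 15.2 and 14.6, against 0.0482 and 0.0713, and differed by -2.22 ± 0.22 (edgeR adjusted p = 2.54e-05). Ibsp, bone sialoprotein, was at 4.38, 6.22 and 2.75 RPKM, then 2.28, 0.444 and 1.09, against 0.0143 and 0.0135. Spp1, osteopontin and a neighbour of its family, was at 1.39, 0.356 and 1.92 RPKM, then 17.2, 3.73 and 4.85, against 0.00900 and 0. Several of these genes are better known from bone or gut than from the thymus.

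The largest falls were in Hmga2, Fam43b, Emilin3, Zfp648, Fat3, Slc26a7, Cntnap4, Adra2c, Plekhb1 and Col8a2. Emilin3 (chr2:160906437-160912328, minus strand), an extracellular matrix glycoprotein, was at 0.203, 0.331 and 0.291 RPKM in CCL21+RANK- libraries, at 0.408, 0.141 and 0.152 in CCL21-RANK+ libraries and at 4.80 and 5.88 in CCL21-RANK- libraries. It fell by 4.45 ± 0.34, and the populations differed by 0.37 ± 0.39 (log2, edgeR adjusted p = 0.465). Hmga2 (chr10:120361275-120476469, minus strand), a chromatin protein of embryonic and progenitor cells, was at 0.386, 0.417 and 0.723 RPKM, then 0.0335, 0.00883 and 0.0173, against 2.5 and 3.27. It fell by 4.88 ± 0.30 and differed between the populations by 4.74 ± 0.41, CCL21+RANK- being the higher (edgeR adjusted p = 1.01e-05), with neither mean over 1 RPKM. Fat3, a giant protocadherin, was at 1.64, 1.52 and 1.94 RPKM, then 0.488, 0.562 and 0.431, against 14.4 and 13.3, and differed by 1.89 ± 0.13 (edgeR adjusted p = 3.47e-06). Fam43b was at 0.0275, 0.0446 and 0.112 RPKM, then 0.924, 0.622 and 0.250, against 4.42 and 5.70, the reverse order (-3.16 ± 0.57, edgeR adjusted p = 0.00117). In the CCL21-RANK- libraries the levels of the 10 genes ranged from 1.13 RPKM for Slc26a7, an anion transporter gene, to 30.6 RPKM for Col8a2, a collagen gene.

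Among abundant shared genes the class II and class I chains, Krt5, Krt17 and S100a14 led the higher side. S100a14, a calcium-binding protein of epithelia, was at 84.6, 78.8 and 93.6 RPKM in CCL21+RANK- libraries, at 632, 399.9 and 455 in CCL21-RANK+ libraries and at 55.4 and 53.6 in CCL21-RANK- libraries, a difference between populations of -2.41 ± 0.15 (log2, edgeR adjusted p = 1.67e-06). The lower side was led by small noncoding RNAs, Rn7s2, Rn7s1, Rn7sk and Scarna10, by the ribosomal protein genes Rplp1, Rpl13a, Rps14, Rpl36 and Rpl32, and by the fatty acid binding protein gene Fabp5. Rn7sk, the RNA that restrains P-TEFb, was at 5706, 7180.0 and 7732 RPKM, then 6162, 7937 and 12418, against 18136 and 22131. Rplp1 was at 387, 461 and 536 RPKM in CCL21+RANK- libraries, at 740.0, 896 and 935 in CCL21-RANK+ libraries and at 951 and 1058 in CCL21-RANK- libraries, and differed between populations by -0.78 ± 0.15 (edgeR adjusted p = 0.00173). Ribosomal protein and 7SL genes have many near-identical copies, so their levels are uncertain. Rn7s2, Rn7s1, Rpl13a, Rps14, Rpl36 and Fabp5 lost their calls without CCL21-RANK- replicate 2 (edgeR adjusted p from 0.058 to 0.227). Rpl13a and Fabp5 also lost theirs without replicate 1 of that group (edgeR adjusted p = 0.0522 and 0.0586), and Rn7s2 without CCL21-RANK+ replicate 2 (0.0509).

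The called shared higher genes with the widest difference between the populations are listed as a description, since they were chosen for it. On the CCL21-RANK+ side these were Lrrc15, Gsdma, Vmo1, Ctrb1 and the keratin gene Krt9. Vmo1 was at 319, 91.1 and 114 RPKM in CCL21-RANK+ libraries, at 0.449, 0.485 and 0.675 in CCL21+RANK- libraries and at 0.419 and 0.353 in CCL21-RANK- libraries, so it met the rule by a margin near the CCL21-RANK- level in CCL21+RANK- TECs. Ctrb1, a pancreatic protease precursor, had 0 counts in both CCL21-RANK- libraries, 1 count in each CCL21+RANK- library (0.0191, 0.0248 and 0.0207 RPKM) and stood at 11.8, 2.66 and 1.39 RPKM in CCL21-RANK+ libraries, so single counts put it inside the rule. On the CCL21+RANK- side these were Kl, Nell1, Rasal1, Fbxo2 and Gata3. Gata3, a zinc finger factor needed for the parathyroid and thymus primordium, was at 29.2, 9.90 and 10.2 RPKM in CCL21+RANK- libraries, at 2.65, 1.95 and 1.76 in CCL21-RANK+ libraries and at 0.593 and 0.432 in CCL21-RANK- libraries. Klotho (Kl) was at 13.1, 2.58 and 4.79 RPKM, then 0.414, 0.239 and 0.464, against 0.0397 and 0.0793. All 5 were highest in CCL21+RANK- replicate 1, where the parathyroid markers also peaked, and the calcium-sensing receptor gene Casr, at 47.4, 19.1 and 23.7 RPKM in those libraries, was the parathyroid marker that met the rule. The part of parathyroid cells in these genes was not tested. Calls were lost for Gsdma without CCL21+RANK- replicate 2 or CCL21-RANK- replicate 2 (edgeR adjusted p = 0.0613 and 0.0882), and for Ctrb1 without the first of these or either CCL21-RANK- library (0.0564, 0.0807 and 0.0996). Rasal1 lost its call without either CCL21-RANK- library (edgeR adjusted p = 0.0567 and 0.0713) and Fbxo2 without replicate 2 of that group (0.06).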

How the data were processed

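Total RNA of sorted E17 TECs was sequenced in 8 libraries. The authors deposited 1 table of RSEM expected counts per gene, the unit of all values used; per the labels' processing notes, reads went through bcl2fastq 2.20, Trimmomatic, STAR 2.5.1 and RSEM 1.3.1 on mm10. The labels name a NEBNext Ultra II Directional kit and the study's methods a TruSeq stranded total RNA kit, so the kit is uncertain, and how strand was used in counting is not given in the sources used here. Every column of per-sample values was used.

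Expected counts, of which 4.47% to 5.94% per library were not whole, were rounded for the fits, and CPM (over each library total) and RPKM (over GENCODE M21 merged exon length) came from the unrounded values. The noncoding genes Gm26917 and Gm42418 took 6.89% to 19.4% and 1.47% to 10.7% of a library. Genes passing edgeR's default filter (21451) were fitted in edgeR 4.0.16 (R 4.3.3, limma 3.58.1) with 3 group means, TMM scaling, the quasi-likelihood F test and Benjamini-Hochberg adjustment over all tested genes; the thresholds of a call follow the study. Tested on simulated data for the reporter-positive contrast (20560 genes), the fit recovered 80% of 200 genes changed 4-fold and called 4 others. Replicates of a group differed beyond counting noise. P-values measure the spread between these libraries only.

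Besides listed genes, the text names, predicted and mitochondrial genes aside, the 10 called shared genes with the largest fold in each direction (mean of at least 5 CPM), the 10 most abundant in each direction, and the 5 on each side that differed most between populations. Members, lists, motifs and these rules were chosen with earlier results of these data known. Alternatives were DESeq2 1.42.0 and its size factors, upper-quartile scaling, other filters (none, 10 counts in every library), the replicate number as a block, 2 groups only, glmTreat, other call rules, other CPM totals, wider gaps and each library left out; a fit of protein-coding genes only was added after the data were seen. A few genes that these rules pick are not reported here.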

Additional observations from a re-analysis of the deposited data

Results flagged for a closer look

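Of 46 genes whose difference between the reporter-positive populations is given in the report, 36 differed by edgeR's quasi-likelihood test (adjusted p under 0.05) although each lay on 1 side of the CCL21-RANK- TECs in both populations. These genes were chosen with earlier results known, and over all tested genes 30.9% were called between the populations in either direction, which also asks for a 1.5-fold difference. The values are log2 differences, positive where CCL21+RANK- TECs were the higher, and no explanation was weighed.

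Higher in CCL21+RANK- TECs were the keratins Krt5 (1.25) and Krt17 (0.45), the class II transactivator Ciita (0.74), the NF-kB genes Nfkb1 (1.01) and Tnfaip3 (1.1), the chemokine Cxcl16 (0.84), the desmosomal genes Dsc3 (3.00) and Pkp1 (1.18), and the ligand Wnt5a (1.85). The Notch genes Dll4 (2.74), Hey1 (2.27) and Nrarp (0.45), the FGF targets Etv5 (2.09) and Spry1 (1.76), follistatin (Fst, 1.46), Hmga2 (4.74) and Fat3 (1.89) had the same order.

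Higher in CCL21-RANK+ TECs were the class II genes Cd74 (-0.78), H2-Aa (-0.88) and H2-Eb1 (-0.77), the immunoproteasome gene Psmb8 (-2.29), and the NF-kB genes Nfkb2 (-0.63), Nfkbia (-1.08) and Birc3 (-1.28). The receptors Cd40 (-1.63), Fas (-2.82) and Tnfrsf19 (-0.66), the chemokine Ccl19 (-2.20) and the integrin subunit Itgb8 (-5.99) followed. So did Hes6 (-0.49), the transcription factors Irf4 (-2.46) and Spib (-3.18), S100a14 (-2.41), Serpina3j (-2.22), Rplp1 (-0.78) and Fam43b (-3.16).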

How the results depend on the processing

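Calls of the reporter-positive contrast (1775 higher, 1777 lower) moved most with 2 groups only, to 89 and 51, since the difference between the populations then counts as spread. Adjusted p alone gave 2831 and 3042, and glmTreat gave 753 lower. Leaving out 1 library gave 1149 to 1833 higher and 1094 to 1933 lower calls, the fewest without CCL21-RANK- replicate 2. The shared genes (2099 higher, 1818 lower) fell to 925 and 248 with a 1.5-fold gap. Calls in both single contrasts gave 503 higher genes and 261 lower genes, 257 of the latter among the 1818. With 1 library left out, which can only add genes to the rule, the shared genes ranged from 2178 to 3415 and from 1926 to 4073. The count of lower shared genes was 2677 on TMM-scaled CPM, which held 1716 of the 1818, and 1845 on CPM without Gm26917 and Gm42418, which held 1463. Size factors of DESeq2 moved the median log2 fold change of all tested genes from 0.01 to 0.10 and the higher share of calls from 50% to 58.3%. Counts of calls between the populations within the shared genes stayed within 1.5 times under every alternative run. Same-numbered libraries deviated together only weakly (r = 0.126, 0.0485 and 0.0707 between the reporter-positive groups, each the best match among reporter-positive libraries only, since CCL21+RANK- replicate 2 correlated better, at 0.117, with CCL21-RANK- replicate 1; r from -0.117 to -0.0411 with same-numbered CCL21-RANK- libraries), so the number is not taken as a pairing, and blocking on it (replicate block) gave 1792 and 1843 calls. Of the log2 fold changes of single named genes under the alternatives, none reversed, 2198 kept their side of the threshold, 212 lost it, most of them with 2 groups only or without a CCL21-RANK- library, and 13 gained it. The causes were not tested beyond what each setting changes by its construction. With 2 CCL21-RANK- libraries, that group sets the precision.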
